A study of Mus musculus with 3 samples.

Results

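Open chromatin was examined at 10 genes of cell-cell adhesion, out of 21851 protein-coding genes with an annotated start site, in hair follicle stem cells (HFSCs) with and without the transcription factor Msx2. The genes were taken from a list by name, with no threshold on a measured value, but the list was drawn up with earlier results of these data known. They were the desmosomal cadherins Dsg2, Dsg3, Dsc2 and Dsc3, which are known from the basal layers, the desmosomal cadherins Dsg4 and Dsc1, which are known from differentiating layers, the plaque genes Dsp, Pkp1 and Jup, and the epithelial cadherin gene Cdh1. For each gene, the peaks of each library were counted in a window that ran from 20 kb before the start site to the end of the gene in GRCm38.

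The libraries were made by Omni-ATAC-seq, an assay that marks accessible DNA by the cuts of Tn5 transposase, from HFSCs sorted from dorsal skin of 6-month-old mice in telogen, when the follicle rests between growth phases. There was 1 Msx2-WT library, from wild-type mice, and there were 2 Msx2-KO libraries, replicates 1 and 2 (KO1 and KO2), from mice in which a neo cassette inserted before exon 2 disrupts Msx2 in all cells, not in HFSCs alone. The number of mice behind a library is not given in the sources used here. By the labels, Msx2-WT was of one batch and KO1 and KO2 were of another. Genotype therefore cannot be told apart from batch, and neither batch holds libraries of both genotypes. In the lists of KO1 and KO2 the peaks are named with the letters cKO, and in KO1 with a library number that is not the one of its label. The labels were followed.

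Desmosomes are the spot-like junctions that hold epithelial cells together under load. Desmogleins (Dsg) and desmocollins (Dsc) are the cadherins that bridge the gap between neighbouring cells, and inside the cell plakoglobin (Jup) and plakophilins (Pkp) tie their tails to desmoplakin (Dsp), which anchors keratin filaments. Adherens junctions use E-cadherin (Cdh1) and are linked to actin. In skin, Dsg3 and Dsc3 are typical of cells near the basement membrane, Dsc1 of the upper epidermis, and Dsg4 of the hair shaft and its inner layers, while Dsg2 and Dsc2 are the most widely expressed of the family. A peak in ATAC-seq shows that DNA at a site is accessible, and does not measure transcription.

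A tag is a sequenced Tn5 cut, extended and counted at the summit of a peak, and the tag number was recovered from the deposited values. The background of a library, its commonest local tag density, was 1.74 tags in Msx2-WT, 0.476 in KO1 and 0.790 in KO2, so that Msx2-WT was 3.65 times as deep as KO1. The lowest tag number past the threshold, a −log10 q above 2.0, was 9, 5 and 6, respectively. Promoter peaks were present at 8, 7 and 9 of 10 HFSC marker genes in Msx2-WT and KO1 and KO2, at 0 of 4 leukocyte markers in each, at 2, 1 and 3 of 4 fibroblast markers, at 3, 2 and 3 of 4 melanocyte markers, at 0, 0 and 1 of 3 endothelial markers and at 2, 0 and 0 of 5 suprabasal markers, the latter Krt10 and Ivl. The part of other cells in the members' values was not tested. Msx2 itself had a promoter peak in all 3 libraries, with 15, 9 and 16 tags, so its peak did not check the labels. The genotypes could not be tested against each other with 1 Msx2-WT library, and each difference is set beside that between the Msx2-KO replicates. Intervals cover counting error only.

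The 10 windows were unevenly filled, and the plaque genes and Cdh1 held most of the peaks. In Msx2-WT, 8 of the 10 genes had at least 1 peak in the window, compared with 7 in KO1 and 10 in KO2. Over all genes the shares with a peak were 64.3%, 52.6% and 69.0%. Since the windows were long, the 4062 genes with windows of like length, from 48.81 to 86.9 kb, give a closer comparison. Of these, 76.2%, 64.3% and 81.6% had a peak, with a median of 1 peak in each library, whereas the 10 adhesion genes had a median of 2.5, 1.5 and 2.5. Counts above the median of 1 were found at 6, 5 and 6 of the 10 genes. They were Dsg2, Dsg3, Dsp, Pkp1, Jup and Cdh1 in Msx2-WT and KO2, and the same genes without Dsg2 in KO1. In all, the windows held 33 peaks in Msx2-WT, 15 in KO1 and 29 in KO2.

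**Figure D1:**
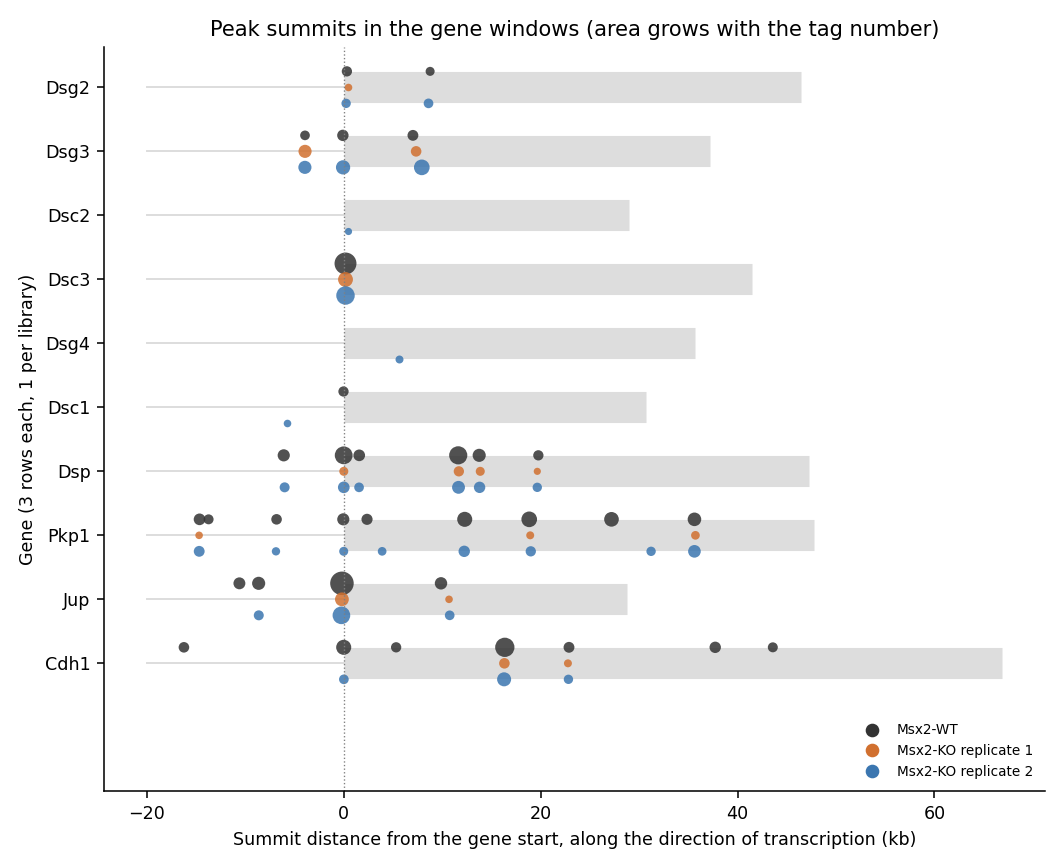
Peak summits in the windows of the 10 genes, with the distance from the gene start along the direction of transcription in kb on the horizontal axis and 3 rows per gene, 1 for each library, grey bars marking the gene and thin lines the 20 kb before it. The area of a point grows with the tag number, and the largest points lie at the promoters of Jup and Dsc3 and in Cdh1 and Dsp, whereas Dsc2, Dsg4 and Dsc1 hold at most 1 peak per library.

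Overlapping peaks of different libraries, by 1 base or more, were joined as 1 region, which gave 38 regions in the 10 windows. Of these, 15 (39.5%) were open in all 3 libraries, compared with 27.6% of all 47562 regions. A further 9 (23.7%) were in Msx2-WT and KO2 alone, compared with 14.4% of all regions, and 9 (23.7%) in Msx2-WT alone, compared with 18.7%. The last 5 (13.2%) were in KO2 alone, compared with 28.0%. The tags of a region are those of the strongest summit of each library, and its position is the summit with the highest −log10 p. At 7 of the 15 regions open in all 3 libraries the summits lay within 100 bases of each other, against 53.4% of all such regions. The classes depended on the setting: regions open in all libraries numbered 5 with a −log10 q of at least 5, 8 with tags thinned to the shallowest library and 24 without KO1, and those in Msx2-WT and KO2 alone 3 when thinned and 5 with lists of equal length, while without KO2 the regions in Msx2-WT alone numbered 18. The class of regions in KO1 and KO2 but missing from Msx2-WT held 0 of the 38 and 7.66% of all regions. The count of 0 did not hold under other settings, and was 1 to 5 in 7 of them. Missing peaks must be read against depth. KO1 lacked a peak at 23 of the 38 regions, and at the lower of the relative levels in the other libraries 18 of these would have held at least the 5 tags that could pass there, but only 2 at least 2 times as many. KO2 lacked a peak at 9 regions, those in Msx2-WT alone. At the level of Msx2-WT all 9 would have held at least 2 times the 6 tags that could pass. They were counted because they passed in Msx2-WT, where at least 9 tags were needed, so this outcome was in part set by that choice. It is no separate support for a difference. No share over all regions is given for the KO2 or the KO1 counts. Here and below, expected tags were scaled by depth and by the median tags over background of regions open in all 3 libraries. By depth alone, fewer would be expected in KO1 and KO2 from Msx2-WT, and more in Msx2-WT from KO2. The 5 and 6 tags are the lowest numbers that passed anywhere, and more were needed where the local background was raised. A summit of 6 tags at Dsp in KO1 and one of 7 tags at Pkp1 in KO2 were listed but did not pass.

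By position, 9 of the 38 regions were promoters, with a summit within 1500 bases of a start site of the gene itself, 9 lay further upstream and 20 lay in introns. No summit lay in an exon beyond the promoter. Of the regions in introns 9 were open in all 3 libraries, of the promoters 4, and of the upstream regions 2.

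**Figure D2:**
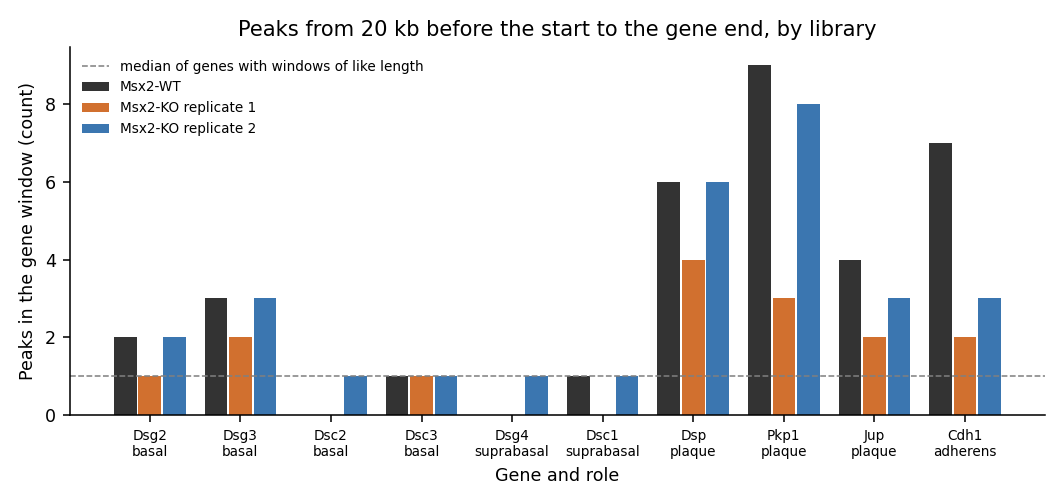
Number of peaks in each gene window (vertical axis, count) for the 10 genes (horizontal axis, with the role of each), with 1 bar per library and a dashed line at 1 peak, the median of genes with windows of like length. Pkp1 had 9, 3 and 8 peaks in Msx2-WT, KO1 and KO2 and Cdh1 had 7, 2 and 3, while Dsc2 and Dsg4 had a peak in KO2 alone.

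Promoter peaks were found at 8 of the 10 genes in Msx2-WT, 4 in KO1 and 8 in KO2, compared with 47.1%, 37.9% and 53.7% of all genes. The promoters of Dsg2, Dsc3, Dsp and Jup were open in all 3 libraries, a state shared by 35.2% of genes. Those of Dsg3, Pkp1 and Cdh1 were open in Msx2-WT and KO2 and had no peak in KO1, the shallowest library (9.64% of genes). The promoter of Dsc1 was open in Msx2-WT alone (2.11%) and that of Dsc2 in KO2 alone (6.50%), while Dsg4 had no promoter peak in any library (43.8%). A promoter peak in KO1 and KO2 that Msx2-WT lacked was found at 0 of the 10 genes (2.32%). Without KO1, the promoter of Dsc1 was in Msx2-WT alone and that of Dsc2 in Msx2-KO alone, and the other 8 genes did not differ in state between the genotypes.

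**Figure D3:**
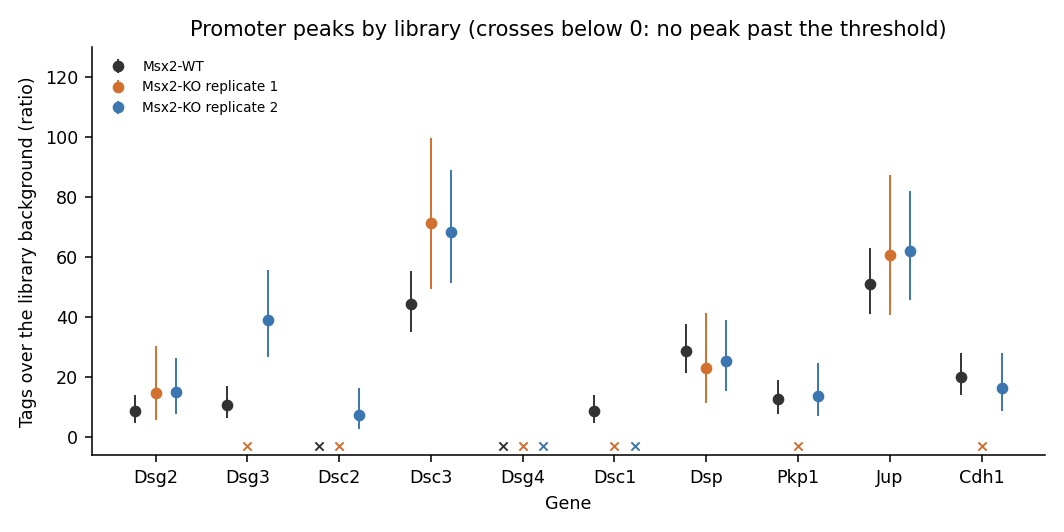
Tags at the promoter summit over the background of the library (vertical axis, ratio) for the 10 genes, with points for the 3 libraries, bars for 95% Poisson intervals of the tag number and crosses below 0 where no peak passed the threshold. The promoters of Dsc3 and Jup stand highest in each library, from 44.3 to 71.4 times the background, and the crosses of Dsg3, Pkp1 and Cdh1 belong to KO1.

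Among the basal-type cadherins, Dsc3 and Dsg3 carried the strongest signals. Dsc3 (ENSMUSG00000059898.9, minus strand of chromosome 18, 19960930 to 20002351) encodes the desmocollin of basal keratinocytes. Its window of 61.42 kb held a single region, at the promoter, 86 bases after the start. The summit in Msx2-WT had 77 tags, with a 95% Poisson interval from 60.8 to 96.2, and there were 34 in KO1 and 54 in KO2. These tags were 44.3, 71.4 and 68.4 times the background, and in Msx2-WT 98.5% of the regions open in all 3 libraries had a lower value. To compare libraries, tags over the background were divided by their median over all regions open in all 3 libraries, which was 13.2, 23.1 and 30.4. On this relative scale the log2 difference of Dsc3 from Msx2-WT was -0.12 in KO1 and -0.57 in KO2, so the replicates differed from each other by more than the first differed from Msx2-WT.

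Dsg3 (ENSMUSG00000056632.8, plus strand, 20510274 to 20547459), the desmoglein of basal keratinocytes and known for holding the telogen club hair in place, had 3 regions. The region 3938 bases before the start had 13 tags in Msx2-WT, 26 in KO1 and 26 in KO2. The region in intron 1 had 17, 16 and 38 tags, at separate summits 7020, 7345 and 7921 bases after the start in Msx2-WT, KO1 and KO2. The promoter had 19 tags in Msx2-WT, no peak in KO1 and 31 tags in KO2. Of the 15 regions open in all 3 libraries, the upstream and the intron 1 region of Dsg3 were the only ones with higher relative tags in both Msx2-KO libraries. The log2 differences from Msx2-WT were 2.06 and 0.94 at the upstream region and 0.98 and 1.10 in intron 1. The intron 1 values compare different summits of a joined region, not a single site. Over all such regions, 99.4% and 90.9% had a lower value than the upstream region of Dsg3 in KO1 and KO2, and 87.2% and 94.4% a lower value than the intron 1 region. These ranks are against regions of every level, and the ratios depended on the level in Msx2-WT. There the upstream and intron 1 regions were weak, with 15.3% and 30.5% of such regions lower. Neither of the 2 Dsg3 regions passed 2 times in both replicates. At the promoter, the relative level of Msx2-WT would have corresponded to 9.08 tags in KO1 and that of KO2 to 14.2 tags. Both were above 5, the lowest tag number that passed anywhere in KO1, but more are needed where the local background is raised. No summit was listed at the promoter at any level in that library.

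The strongest peaks of Dsg2 and Dsc2 had fewer tags than those of Dsc3 and Dsg3. Dsg2 (ENSMUSG00000044393.15, plus strand, 20558074 to 20604521) had a promoter peak of 15, 7 and 12 tags in Msx2-WT, KO1 and KO2. Its region in intron 1, 8604 bases after the start, had 11 tags in Msx2-WT and 13 in KO2, and 4 tags below the threshold in KO1. The relative log2 difference at the promoter was -0.04 and -0.38, within the middle of all regions open in all 3 libraries, of which 39.9% and 28.8% were lower. Dsc2 (ENSMUSG00000024331.11, minus strand, 20030633 to 20059554) had 1 peak in 1 library, 450 bases after its start, with 6 tags in KO2 (2.20 to 13.1). On the relative scale that level would have corresponded to 5.76 tags in Msx2-WT and 2.75 in KO1, below what could pass in either. On that scale the difference between libraries was thus not detectable.

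The 2 suprabasal-type cadherins of the list had almost no peaks. Dsc1 (ENSMUSG00000044322.7, minus strand, 20084184 to 20114871), the desmocollin of the upper epidermis, had a promoter peak of 15 tags in Msx2-WT (8.40 to 24.7). KO2 had a summit of 4 tags there that did not pass the threshold, and KO1 had none listed. On the relative scale, the Msx2-WT level would have corresponded to 7.17 tags in KO1 and 15.6 in KO2. The lowest tag numbers that passed anywhere in these libraries were 5 and 6. Of 5 suprabasal markers, Krt10 and Ivl likewise had promoter peaks in Msx2-WT and in neither Msx2-KO library, while Krt1, Lor and Flg had none in any library. Whether suprabasal cells took part in the Dsc1 peak was not tested. Per the study's methods, HFSCs were sorted as CD34+, CD49f+ (α6 integrin) and Sca-1-, and the purity of the sort is not given in the sources used here. A region 5813 bases before Dsc1 had 7 tags in KO2 and 7 tags below the threshold in Msx2-WT. Dsg4 (ENSMUSG00000001804.9, plus strand, 20436175 to 20471821), the desmoglein of the hair shaft cortex, had 1 peak in all, of 8 tags in KO2, in intron 1 and 5590 bases after the start.

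Per length of window, the basal-type cadherins had 0.256 peaks per 10 kb in Msx2-WT, 0.171 in KO1 and 0.299 in KO2. The suprabasal-type cadherins had 0.0940, 0 and 0.188 peaks per 10 kb. The median over all genes was 0.191, 0.0661 and 0.233. The pooled value of the listed basal-type genes lay above it and that of the listed suprabasal-type genes below it in each library. Single genes did not all follow: Dsc2 lay below the median in each library and Dsc3 in Msx2-WT and KO2, both at 0.163, while Dsc1 lay above it in Msx2-WT, at 0.197. The difference between the types was 0.162, 0.171 and 0.111 peaks per 10 kb, from 6, 4 and 7 peaks against 1, 0 and 2. The order was not stable in Msx2-WT: it turned over with a −log10 q of at least 5 and with tags thinned to the shallowest library, to -0.00856 in both. By gene, Dsg3 was denser in peaks than 82.9%, 81.8% and 81.9% of genes, whereas Dsc3 with its 1 strong promoter was denser than 46.6%, 60.2% and 41.3%.

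All 6 desmosomal cadherin genes of the list lie in one cluster on chromosome 18, within 643.6 kb together with Dsg1a, Dsg1b and Dsg1c, the mouse copies of the pemphigus foliaceus antigen. The cluster held 23 regions, 10 of them in the windows of the 6 genes, and 9 of the 23 were open in all 3 libraries. Among the regions in the windows of Dsg1a, Dsg1b and Dsg1c, the strongest lay 18681 bases before Dsg1c, with 74 tags in Msx2-WT, 25 in KO1 and 67 in KO2. This site was 42.6, 52.5 and 84.8 times the background, a level like that of the Dsc3 promoter, while Dsg1c had no promoter peak in any library. Dsg1a had 20, 6 and 11 tags and Dsg1b had 12, 13 and 18 tags at the promoter. The window of Dsg1a held 2, 1 and 3 peaks, and those of Dsg1b and Dsg1c held 1 in each library. The Dsg1 genes were not on the list and were counted with neither type, so the comparison of types covers the listed genes alone. The 3 copies are closely similar in sequence and reads may have been placed at the wrong one, so their values are uncertain. The windows of Dsg3 and Dsg2 shared 9.386 kb, which held 0 peaks, so no peak was counted for both.

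The plaque genes were the densest in peaks, with 1.03 peaks per 10 kb in Msx2-WT, 0.489 in KO1 and 0.924 in KO2. Each of the 3 genes was denser than 85.7% of genes or more in every library. Their windows held 21 of the 38 regions, and 9 of the 15 open in all 3 libraries. A peak was missing at 2 of the 21 regions in Msx2-WT, at 12 in KO1 and at 4 in KO2. The lists of the 3 libraries held 29817, 18518 and 37012 peaks for 47562 regions in all. KO1 thus lacked a peak at most regions of the genome, and its count at the plaque genes is not particular to them.

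Dsp (ENSMUSG00000054889.10, chr13:38151294-38198577, plus strand) encodes desmoplakin, the link to keratin, and had 6 regions. The promoter had 50 tags in Msx2-WT (37.1 to 65.9), 11 in KO1 (5.49 to 19.7) and 20 in KO2 (12.2 to 30.9). Over the background these were 28.8, 23.1 and 25.3, which lay close together, but at most regions open in all 3 libraries this ratio was higher in the Msx2-KO libraries, and relative to their median the log2 difference was -1.12 and -1.38. The region in intron 1, 11623 bases after the start, had 52, 15 and 25 tags and a log2 difference of -0.73 and -1.12. Smaller differences were found at 13752 bases, in intron 2, with 26, 11 and 19 tags, and at 19762 bases, in intron 4, with 15, 6 and 12 tags. The regions 6103 bases before and 1566 bases after the start had 22 and 20 tags in Msx2-WT and 14 and 13 in KO2, and only summits of 3 and 6 tags below the threshold in KO1.

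The promoter of Dsp is shown because it was one of the 2 regions past 2 times lower in both Msx2-KO libraries, and the intron 1 region because, of those of the gene away from the promoter and open in all 3 libraries, it had the highest −log10 q in its weakest library (6.66). The promoter runs from 250 bases before the start, chr13:38151044-38151323, and the intron 1 sequence covers 100 bases on either side of the summit, chr13:38162817-38163017. Both are from the plus strand of GRCm38, as RefSeq gives it. In all sequences shown, capitals mark matches on either strand to 5 motifs. These were TGANTCA (AP-1), GGAATG (TEAD), TAATTA (homeobox), TAATTG (the preferred core of Msx proteins) and CAGGTG, the E-box bound by Snail and Zeb repressors and by other factors. The E-box was added after the other motifs had been fixed, since E-boxes in the promoter of Cdh1 are known.
Dsp promoter: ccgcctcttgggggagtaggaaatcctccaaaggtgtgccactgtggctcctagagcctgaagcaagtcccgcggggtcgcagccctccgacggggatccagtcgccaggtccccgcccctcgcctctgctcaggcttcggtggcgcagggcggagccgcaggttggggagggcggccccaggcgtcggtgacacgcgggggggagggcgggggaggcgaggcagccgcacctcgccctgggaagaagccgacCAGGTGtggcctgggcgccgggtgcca
Dsp intron 1: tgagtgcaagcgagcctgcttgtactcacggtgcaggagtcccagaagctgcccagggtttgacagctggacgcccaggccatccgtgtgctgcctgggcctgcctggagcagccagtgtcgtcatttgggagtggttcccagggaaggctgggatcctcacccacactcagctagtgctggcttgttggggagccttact
The Dsp promoter held 1 E-box and had a G+C content of 72.9%, and the intron 1 sequence held no match.

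Pkp1 (ENSMUSG00000026413.12, chr1:135871395-135919207, minus strand) encodes plakophilin 1, the plakophilin that clusters desmosomal cadherins in stratified epithelium. It had 11 regions, more than any other gene of the list, with 9, 3 and 8 peaks in the 3 libraries. The region in intron 2, 18835 bases after the start, had 38 tags in Msx2-WT (26.9 to 52.2), 8 in KO1 (3.45 to 15.8) and 15 in KO2 (8.40 to 24.7). It was the other region past 2 times lower, with log2 differences of -1.18 and -1.40. Regions 14690 bases before the start, with 20, 7 and 17 tags, and 35619 bases after it, in intron 6, with 28, 10 and 24 tags, differed less, by -0.45 and -0.30 and by -0.42 and -0.28. A region 27192 bases after the start was in Msx2-WT alone, with 33 tags, and had a summit of 7 tags below the threshold in KO2. At the relative level of Msx2-WT that library would have held 34.4 tags there and KO1 15.8. The promoter had 22 tags in Msx2-WT, no peak in KO1 and 11 tags in KO2, and the region at 12282 bases had 35 tags, no peak and 19 tags.

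The region upstream of Pkp1 is shown because, by the same rule, its −log10 q in its weakest library was the highest (4.30), although other regions of the gene had more tags, and the intron 2 region because it was past 2 times lower. The upstream region covers chr1:135933797-135933997 and the intron 2 region chr1:135900272-135900472, both on the plus strand of GRCm38 as RefSeq gives it.
Pkp1 upstream: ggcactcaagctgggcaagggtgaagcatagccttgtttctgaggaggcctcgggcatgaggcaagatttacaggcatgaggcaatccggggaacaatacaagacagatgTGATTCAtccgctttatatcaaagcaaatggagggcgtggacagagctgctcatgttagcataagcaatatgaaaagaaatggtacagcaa
Pkp1 intron 2: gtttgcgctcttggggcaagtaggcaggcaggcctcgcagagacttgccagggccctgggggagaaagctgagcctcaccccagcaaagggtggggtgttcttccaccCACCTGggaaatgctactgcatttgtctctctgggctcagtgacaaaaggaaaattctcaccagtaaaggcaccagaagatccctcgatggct
The intron 2 region held 1 E-box, and the upstream region held 1 AP-1 match.

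Jup (ENSMUSG00000001552.14, chr11:100368958-100397763, minus strand) encodes plakoglobin, which is shared by desmosomes and adherens junctions. Its promoter had 89 tags in Msx2-WT (71.5 to 109.5), the most of the 10 genes, and 29 in KO1 and 49 in KO2, in both of which the Dsc3 promoter had more. These were 51.2, 60.9 and 62.0 times the background, above 99.3% of the regions open in all 3 libraries in Msx2-WT. The relative log2 difference was -0.55 and -0.92. The region in intron 1 had 23, 7 and 13 tags, at summits 9873, 10689 and 10755 bases after the start in Msx2-WT, KO1 and KO2. Its differences of -0.65 and -0.88 therefore compare different summits of a joined region. Upstream, a region at 8651 bases had 26 tags in Msx2-WT and 14 in KO2, and a region at 10607 bases had 21 tags in Msx2-WT alone. The relative level of the latter would have given 10.0 tags in KO1 and 21.9 in KO2. The intron 1 region is shown as the only one away from the promoter that was open in all 3 libraries. The sequence covers 100 bases on either side of the Msx2-WT summit, chr11:100387790-100387990 on the plus strand. The summits of KO1 and KO2 lay outside it.
Jup intron 1: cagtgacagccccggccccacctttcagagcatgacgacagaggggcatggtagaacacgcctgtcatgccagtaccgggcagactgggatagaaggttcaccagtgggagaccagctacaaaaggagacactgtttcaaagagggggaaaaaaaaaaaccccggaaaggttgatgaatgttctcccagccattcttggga
It held no match to the 5 motifs.

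Cdh1 (ENSMUSG00000000303.12, chr8:106603351-106670246, plus strand) encodes E-cadherin, the cadherin of epithelial adherens junctions. Its window held 7 peaks in Msx2-WT, 2 in KO1 and 3 in KO2. Pkp1, with 9, 3 and 8, and Jup, with 4, 2 and 3, also had the most peaks in Msx2-WT, the deepest library. Dsc2 and Dsg4 had a peak in KO2 alone. The share of all genes with the most peaks in Msx2-WT is not given. The strongest region lay in intron 2, 16355 bases after the start, with 59 tags in Msx2-WT (44.9 to 76.1), 16 in KO1 and 30 in KO2. Over the background these were 34.0, 33.6 and 38.0, and the relative log2 difference was -0.82 and -1.04. A second region of intron 2, at 22875 bases, had 17, 8 and 12 tags and differences of -0.02 and -0.56. The promoter had 35 tags in Msx2-WT, no listed summit in KO1 and 13 tags in KO2. At the promoter, KO1 would have held 16.7 tags at the relative level of Msx2-WT and 5.96 at that of KO2. The latter was close to 5, the lowest tag number that passed anywhere in KO1.

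A set of 4 weaker regions of Cdh1 was in Msx2-WT alone. They had 16 tags 16242 bases before the start, and 15, 19 and 14 tags at 5314, 37729 and 43580 bases after it, all 3 in intron 2. At the relative level of Msx2-WT, KO2 would have held 14.6 to 19.8 tags at these sites, where 6 was the lowest number that passed anywhere in KO2. By depth alone fewer would be expected. Only the last site had a listed summit in KO2, of 6 tags below the threshold. The promoter is shown because the libraries differed on it, from 250 bases before the start, chr8:106603101-106603380, and the intron 2 region at 16355 bases by the rule given for Dsp, with a −log10 q of at least 9.08 in each library, chr8:106619606-106619806, both on the plus strand.
Cdh1 promoter: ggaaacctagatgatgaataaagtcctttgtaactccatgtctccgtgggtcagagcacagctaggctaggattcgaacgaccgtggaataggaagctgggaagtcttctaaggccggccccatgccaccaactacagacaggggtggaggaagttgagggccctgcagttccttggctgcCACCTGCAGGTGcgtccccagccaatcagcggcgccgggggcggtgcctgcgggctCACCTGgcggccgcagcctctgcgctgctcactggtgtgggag
Cdh1 intron 2: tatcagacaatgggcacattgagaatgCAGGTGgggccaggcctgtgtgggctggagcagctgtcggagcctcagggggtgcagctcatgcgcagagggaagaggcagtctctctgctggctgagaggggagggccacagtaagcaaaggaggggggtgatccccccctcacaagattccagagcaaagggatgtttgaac
The promoter held 3 E-boxes, of which 2 adjoin as an inverted repeat and the last lies closer to the start. The intron 2 sequence held 1.

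Across the 15 regions open in all 3 libraries, 13 had lower relative tags than Msx2-WT in both Msx2-KO libraries, compared with 34.0% of all 13075 such regions with tags, and the 2 others were those of Dsg3. The median log2 difference was -0.42 in KO1 and -0.56 in KO2, where all such regions had medians of 0.17 and 0.01. At 10 of the 15, both differences from Msx2-WT were larger than the difference between the Msx2-KO replicates, compared with 44.9% of all. Past 2 times lower in both were the Dsp promoter and the Pkp1 intron 2 region, 2 of 15 (3.23% of all), and past 2 times higher were 0 of 15 (4.83%). The comparison depends on the level: regions with many tags in Msx2-WT tended to have lower ratios in general. Among the 2681 regions with at least 21.9 times the background in Msx2-WT, the level of the Pkp1 region, 8.65% were past 2 times lower and the medians were -0.16 and -0.28. The 6 regions of the list at that level had medians of -0.77 and -1.08, with all 6 below 0 in both libraries, against 57.7% and 70.2% of all regions at that level. The level was set from the 2 regions past 2 times lower, so both are among these 6. The comparison at that level is therefore no separate support for them.

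The direction rests on the scale. Without division by the median of all regions open in all 3 libraries, tags over the background at the 15 regions were higher in the Msx2-KO libraries, with medians of 0.38 and 0.64, as they were over all such regions, with medians of 0.98 and 1.20. On the deposited fold enrichment, which is taken against the local background, the medians were -0.11 and -0.23, against 0.04 and -0.07 over all, and no region was past 2 times lower. On each of the 3 scales the median of the list was below that of all regions. The divided and undivided scales differ by a constant per library, so the gap between the list and all regions is the same on both. Only the deposited fold could have given another gap. The Dsp promoter was lower than in Msx2-WT also on the undivided scale (-0.32 and -0.18) and on the deposited fold (-0.39 and -0.80), as was the Pkp1 intron 2 region (-0.38 and -0.20, and -0.54 and -0.69). The upstream region of Dsg3 was higher on the undivided scale (2.87 and 2.14) and on the deposited fold (1.44 and 0.49), and its intron 1 region likewise (1.78 and 2.30, and 0.24 and 0.32). At the Dsg3 regions the undivided values had to be higher, since the constant raises every region. Genotype, batch and depth differ together between these libraries, and their parts cannot be told apart.

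**Figure D4:**
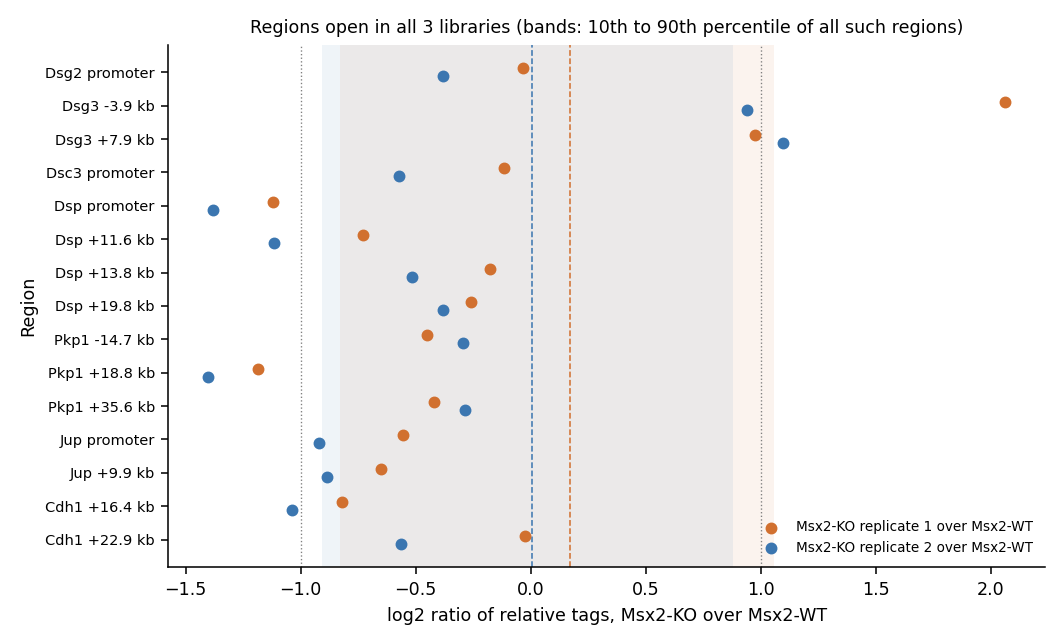
Log2 ratio of relative tags, Msx2-KO over Msx2-WT (horizontal axis), at the 15 regions open in all 3 libraries (vertical axis, by gene and distance from the start), with 1 point per Msx2-KO library, bands from the 10th to the 90th percentile and dashed lines at the median of all such regions, and dotted lines at a change of 2 times. Points of 13 regions lie below 0 in both libraries and those of the 2 Dsg3 regions above 0.

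Sequence around the summits was compared with that of all regions, in windows of 300 bases and on both strands. An E-box CAGGTG was found in 20 of the 38 regions (52.6%, 95% Wilson interval 37.3 to 67.5), against 22.2% of all 47562 regions. It was in 7 of the 9 promoters, against 19.4% of promoter regions, and in 13 of the 29 other regions, against 23.1%. The AP-1 motif TGANTCA was in 8 of the 38 regions (21.1%), against 15.7% of all, and the TEAD motif GGAATG in 8, against 18.2%, none of them at promoters. TAATTG was in 4 of the 38 (10.5%), against 10.2%, at Dsg3, Dsc1, Pkp1 and Cdh1, and TAATTA in 1 (2.63%), against 8.13%. No match shared a base with a match of another motif. In windows of the printed lengths, an E-box was in 15.7% of all regions of 201 bases and in 19.1% of all promoters of 280 bases, and an AP-1 match in 12.0% and 6.61%. A match shows the letters only, and no factor binding was measured.

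The base composition of the promoters, from 250 bases before to 50 after the start, was examined for 9 of the genes and differed among them. Dsp (73.0% G+C, 27 CpG), Jup (65.0%, 20 CpG), Dsg2 (63.7%, 19 CpG) and Cdh1 (61.7%, 17 CpG) lay above the median of 55.0% and 11 CpG over 21844 promoters. Dsg3, Dsg4 and Dsc1 had 1 CpG each and Dsc3 and Dsc2 had 5. The strongest promoter relative to the background among the cadherins, that of Dsc3, had 47.3% G+C, with 24.9% of promoters lower. CpG-rich promoters thus included 3 of the 4 open in all libraries and that of Cdh1, which had no peak in KO1.

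Of 19 other genes of desmosomes and adherens junctions, fixed as a list, 15 had a promoter peak in all 3 libraries (35.2% of all genes), the state of Dsg2, Dsc3, Dsp and Jup. They included Pkp3, the plakophilin of most epithelia, with 24, 14 and 37 tags in Msx2-WT, KO1 and KO2, Perp, a desmosomal membrane protein, with 46, 17 and 33, the P-cadherin gene Cdh3 with 26, 6 and 27, and the β-catenin gene Ctnnb1 with 26, 7 and 24. Dsg1c, Pkp2 and Cdsn had no promoter peak in any library, as Dsg4. None was like Dsg3, Pkp1 and Cdh1 or like Dsc2. Periplakin (Ppl), a plakin of the upper epidermis, was the only one whose promoter state was that of Dsc1, with 33 tags at its promoter in Msx2-WT. In KO1 and KO2 the nearest peaks lay 2671 and 2631 bases before the start of Ppl, with 16 and 26 tags, and summits of 8 and 14 tags within 1500 bases did not pass the threshold.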

How the data were processed

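Per the study's methods, reads were trimmed (Trimmomatic) and aligned with BWA-MEM to GRCm38, mitochondrial reads were removed, and the authors called peaks per library with MACS2, with duplicates kept, no shifting model, a shift of 100 and an extension of 200. Replicates were not pooled, and the MACS2 version is not given in the sources used here. Per the labels, the genome build was GRCm38. The authors deposited per summit a fold enrichment, (tags + 1) over (local background + 1), with −log10 p and −log10 q values. The deposited score column was not used. Summit positions were taken as listed. The lists reach a p-value of 0.01, whereas the methods name a q-value of 0.01, so summits with a −log10 q above 2.0 were kept, on chromosomes 1 to 19, X and Y.

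The whole tag number and local background were solved from the fold and −log10 p (at least 99.92% of summits per library), and the commonest background served as depth. Since the authors kept duplicates, tags are not independent molecules. Peaks sharing 1 base were merged. Genes and start sites came from the basic GENCODE M21 annotation, and sequences from the RefSeq copy of GRCm38. The solver and the merging were tested on simulated data. The members and lists were chosen with earlier results of these data known. All 10 genes were named, then Msx2, the Dsg1 genes, other junction genes whose promoter had one state in Msx2-WT and another in KO1 and KO2, and examples from that list. The examples Pkp3, Perp, Cdh3 and Ctnnb1, the level of 21.9 times the background, the levels expected at missing peaks and the E-box were chosen after values had been seen. The RefSeq promoter table held Dsp and Jup, 2 of the 10 genes. The promoter sequence of Pkp1 is not reported here. The alternatives are listed with their effects in the closing section. Tables were handled in pandas 2.3.3 and numpy 2.4.6 under Python 3.11.15, with scipy 1.17.1 for intervals and matplotlib 3.10.9 for plots.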

Additional observations from a re-analysis of the deposited data

How the results depend on the processing

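Of 129 values recomputed under other settings, 88 stayed within their limits, 37 moved and 4 changed sign. No paired analysis was possible because the genotypes share a single replicate number. With a −log10 q of at least 5, regions in all 3 libraries numbered 5, those in KO1 and KO2 alone 2, the median log2 differences were -0.97 and -1.11, and the basal-type minus suprabasal-type difference was -0.00856, 0.128 and 0.256 peaks per 10 kb in Msx2-WT and KO1 and KO2. With every deposited peak it was 0.342 and 0.402 in the Msx2-KO libraries, and 1 region was in both alone. With lists of equal length it was 0.0769 in Msx2-WT and 0.214 in KO2, where 5 promoters had a peak, 5 regions were in Msx2-WT and KO2 alone and 1 in KO1 and KO2 alone. Thinned to the shallowest depth, 8 regions were in all 3 libraries, 5 in KO1 and KO2 alone and 3 in Msx2-WT and KO2 alone, and the difference in Msx2-WT was -0.00856. In the gene body alone the difference was 0.260 and 0.174 in Msx2-WT and KO2, with 5 regions in Msx2-WT alone and 4 in Msx2-WT and KO2. From 5 kb before the start it was 0.214, 0.230 and 0.271, and from 50 kb 0.102 and 0.109 in Msx2-WT and KO1, with 16 regions in Msx2-WT alone. Regions in KO1 and KO2 alone numbered 1 with 50% reciprocal overlap and 2 with summits within 100 bases. Without division by the median the log2 differences were 0.38 and 0.64 and 0 regions were past 2 times lower. On the deposited fold they were -0.11 and -0.23, again with 0 regions. Leaving out KO1 or KO2 gave 15 to 24 regions in all remaining libraries, 9 to 18 in Msx2-WT alone, 0 to 5 in Msx2-KO alone and 2 to 4 past 2 times lower. For these shifts the cause was not tested.

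A missing peak is bounded by depth: on the relative scale the Cdh1 promoter at its KO2 level equals 5.96 tags in KO1, where the lowest tag number past the threshold was 5. There was 1 Msx2-WT library, of another batch than KO1 and KO2.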
